A study of Mus musculus with 10 samples.

Results

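The genes described here are 42 mouse genes of the glutamatergic synapse, of 45195 gene IDs in the expression table. They comprise 17 glutamate receptor subunits and receptors, 2 auxiliary proteins of AMPA receptors, 12 scaffolds of the postsynaptic density, 2 proteins of the dendritic spine cytoskeleton and 9 adhesion molecules of the synaptic cleft. They were named by symbol and kept if their value was at least 1 in at least 2 of the 10 libraries, without reference to which group was higher. All 42 passed and were among the 15712 genes fitted with limma, a linear model that shares information on spread between genes. Values are on the FPKM scale (fragments scaled by transcript length and by library depth), as far as the values themselves show.

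At an excitatory synapse, glutamate released by the axon opens AMPA, NMDA and kainate receptors, which are ion channels, and binds metabotropic receptors, which signal through G proteins. The postsynaptic density is the protein mesh beneath these receptors: DLG scaffolds bind the receptors, SAPAP proteins link DLG to SHANK, and HOMER links SHANK to metabotropic receptors. Neuroligins and LRRTM proteins on the dendrite bind neurexins on the axon and hold both sides together. Several mRNAs of this group, such as those of dendrin, SHANK proteins and SAPAP proteins, are carried into dendrites and translated there.

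RNA came from neurites, the axons and dendrites that cortical neurons of E16.5 mouse embryos sent through 3 µm pores of a membrane, after removal of the cell bodies that remained above it. The groups were injured neurites of Cpeb1 knockout neurons (2 libraries), naive neurites of Cpeb1 knockout neurons (2 libraries), injured neurites of wild-type neurons (3 libraries) and naive neurites of wild-type neurons (3 libraries). Knockout neurons carried Cpeb1 flox/flox alleles on the C57BL/6 background, wild-type neurons were C57BL/6, and neurons of both genotypes were infected at plating with AAV2 that expresses Cre from the ubiquitous CAG promoter. Injured neurites had been scraped off the underside on day 7 and were lysed 24 hours later, on day 8, the day on which naive neurites were lysed as well. An effect of injury and one of the time since outgrowth began cannot be told apart here. Cpeb1 encodes an RNA-binding protein that acts on cytoplasmic mRNAs through a U-rich element in their 3′ untranslated region (3′ UTR). The labels do not say that replicates were separate cultures, and the p-values therefore reflect the spread among the libraries at hand, which may be technical.

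The libraries held an estimated 21020000 to 27740000 fragments, if the values are FPKM, and 12231 to 13143 genes with a value of at least 1. Wild-type injured replicate 3 had the fewest such genes, and its correlation with the others averaged 0.839 on the log2 scale, against 0.867 to 0.898 for the other 9. Cpeb1 itself stood at 1.14 and 3.15 in injured knockout neurites and 5.97 and 0.356 in naive knockout neurites, and at 1.65, 13.8 and 22.6 in injured wild-type neurites and 7.16, 5.96 and 5.86 in naive wild-type neurites. The library labelled Cpeb1 knockout naive replicate 1 thus lay within the wild-type naive range, against its label, wild-type injured replicate 1 lay within the injured knockout range, and directions between genotypes follow the labels. Which exons the floxed allele loses is not given in the sources used here, and the value covers the whole gene. In such bulk samples, fewer cells of a type and less RNA per cell cannot be told apart.

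The receptor and scaffold mRNAs spanned a wide range of levels in naive wild-type neurites. Cnih2, whose product escorts AMPA receptors out of the endoplasmic reticulum and slows their closing, was the most abundant at 285 ± 6.81 FPKM (mean ± SD, n = 3). Dlgap4, a SAPAP scaffold gene, followed at 169 ± 46.8 FPKM and Gria2, which encodes the AMPA receptor subunit that limits calcium entry, at 144 ± 11.999 FPKM. The lowest Cnih2 library, 279, lay above the highest Dlgap4 library, 214, whereas the ranges of Dlgap4 and Gria2 overlapped. Dlgap1, Dlg2, Grin2b and Lrrtm1 formed a next tier with means of 50.3 to 60.7 FPKM and overlapping ranges, and Nrxn2, Grin1 and Nlgn3 had means of 33.2, 27.2 and 21.4 FPKM. At the low end stood Lrrtm4, Grin2d, Grin3a, Dlg3 and Grik3, with means of 0.997 to 2.20 FPKM. No gene of the group was at 0 in a naive library of either genotype.

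**Figure D1:**
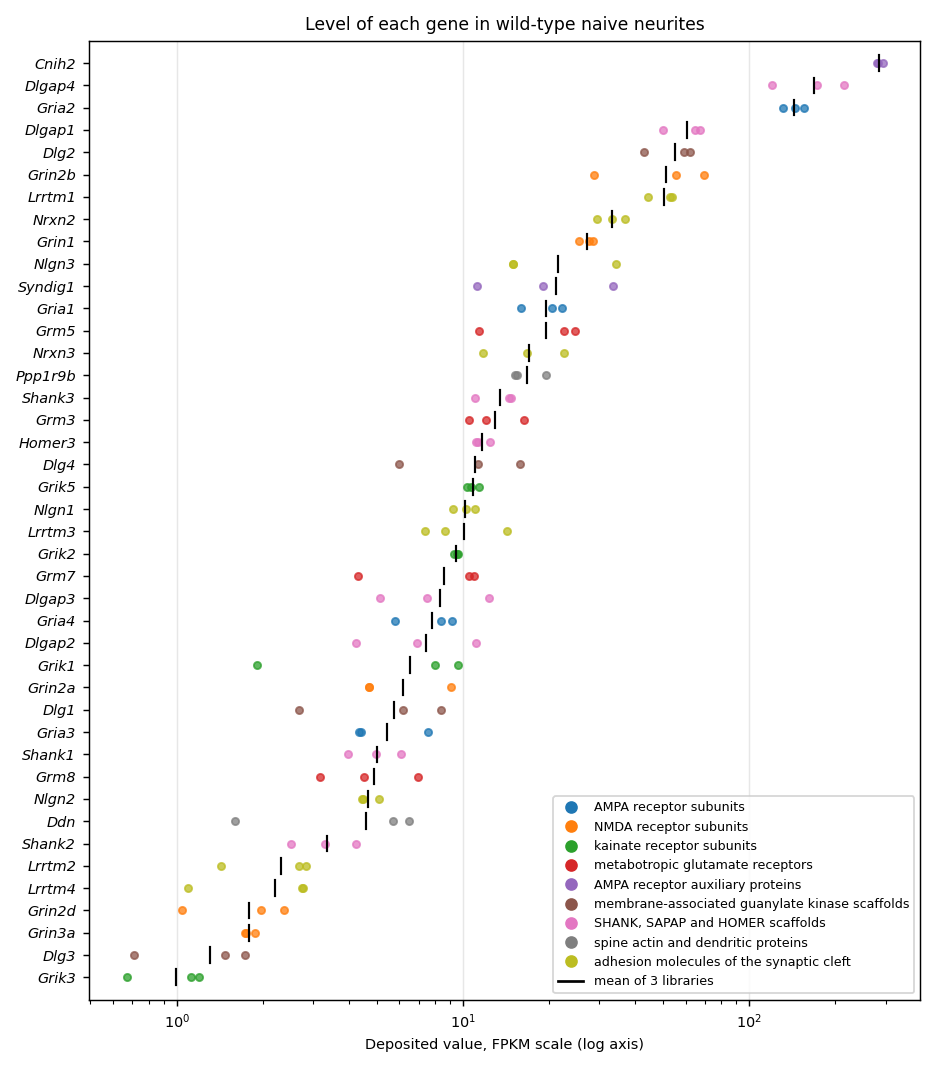
Level of each of the 42 genes in the 3 wild-type naive libraries (points, log axis, FPKM scale) with the group mean (vertical bar), coloured by role and ordered by mean. Cnih2, Dlgap4 and Gria2 lie above 100 FPKM, and Grik3 has the lowest mean, 0.997.

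Since Cpeb1 binds a cytoplasmic polyadenylation element, the longest annotated 3′ UTR of each gene (GENCODE M21 transcripts, mm10) was searched on the transcript strand for the DNA letters TTTTAT and TTTTAAT, which do not contain one another. At least 1 of them was present in 28 of the 42 genes (66.7%) and in 63.0% of the 13143 fitted genes with an annotated 3′ UTR. The 42 genes had longer 3′ UTRs, with a median of 2592 bases against 1380 bases for all these genes. Among 3′ UTRs of at least 1000 bases the shares were 70.6% (24 of 34) and 80.4%. Gria2, with 22 matches, and Grin2b, with 20, held the most, while Grin1, Cnih2, Nrxn3 and Shank3 held none. The sites below are those of Syndig1, the gene with the largest estimated difference, and the matches nearest the transcript end in Gria1 and Gria3, whose shares of the AMPA receptor pool are compared below. Capitals mark the match, and each sequence is written 5′ to 3′ on the plus strand, which is the transcript strand of all 3 genes.
Syndig1 chr2:150003472-150003499: agttctttcatTTTTATccttcaacttc
Syndig1 chr2:150003680-150003707: atatgtttattTTTTATggaatatggtg
Syndig1 chr2:150004269-150004297: aatcacagatgTTTTAATaccatgtcact
Gria1 chr11:57330035-57330062: gtacctgggccTTTTATttaacatatat
Gria3 chrX:41678553-41678581: tatgtacaaagTTTTAATacattttgtaa
A match describes these letters alone, and binding by Cpeb1 was not measured.

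Estimates for most of these mRNAs were lower in injured than in naive neurites, in both genotypes. The summed level of the 42 genes was 811 and 903 FPKM in injured knockout neurites and 1103 and 1204 FPKM in naive knockout neurites, and 817 to 997 FPKM in injured wild-type neurites and 1105 to 1207 FPKM in naive wild-type neurites. These sums did not overlap between injured and naive libraries in either genotype, but abundant genes weigh most in them. Cnih2 supplied 157 of the 997 FPKM in wild-type injured replicate 2. It supplied 283 of the 1105 FPKM in wild-type naive replicate 2, so the wild-type separation of the sums rests on this gene. The median log2 difference of the 42 genes between injured and naive neurites was -0.44 in the knockout, where that of all fitted genes was -0.09, and -0.42 in wild type, where that of all fitted genes was 0.01. The estimate was below 0 for 29 of 42 genes in the knockout (56.1% of all fitted genes) and for 28 of 42 in wild type (49% of all fitted genes). The injury comparisons of both genotypes share no library, and 26 of 42 genes were below 0 in both (29.9% of all genes), 11 were above 0 in both (23.4%) and 5 had opposite signs (44.4%). Without wild-type injured replicate 3 the wild-type median was -0.22, and without the library labelled Cpeb1 knockout naive replicate 1 the knockout median was -0.54. When Cpeb1 knockout injured replicate 2 was left out instead, it was -0.29.

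By limma, with p-values adjusted over all 15712 genes and called under 0.05, 2 of the 42 genes fell after injury in wild type, Syndig1 and Cnih2, and none rose. Of all fitted genes 0.248% fell and 0.7% rose. At an unadjusted p under 0.05, 9 of the 42 genes were lower and none higher, against 6.24% and 7.66% of all genes. In the knockout limma called 0 of the 42 genes, where 9 of all genes (0.0573%) were called in either direction. There 5 of the 42 genes were lower and none higher at an unadjusted p under 0.05, against 4.05% and 1.68% of all genes. The fit that averaged both genotypes, which shares libraries with each of the comparisons above, called Cnih2 alone among the 42 (0.28% of all genes fell), and at an unadjusted p under 0.05 it had 13 lower and none higher (6.53% and 4.89% of all genes). In 8 genes every injured library lay below every naive library of the same genotype in both genotypes: Cnih2, Dlgap1, Gria1, Gria2, Grik2, Grin1, Grm3 and Ppp1r9b. This held for 2.99% of all fitted genes, and none of the 42 genes had the opposite pattern, which 2.18% of all genes had. These shares do not compare like with like. The 42 genes spread less within groups than fitted genes of the same level, with a median residual SD of 0.41 against 0.63 on the log2 scale. All 42 encode proteins, as do 13214 of the 15712 fitted genes. The part of either in this count, or in the shared signs above, was not tested.

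**Figure D2:**
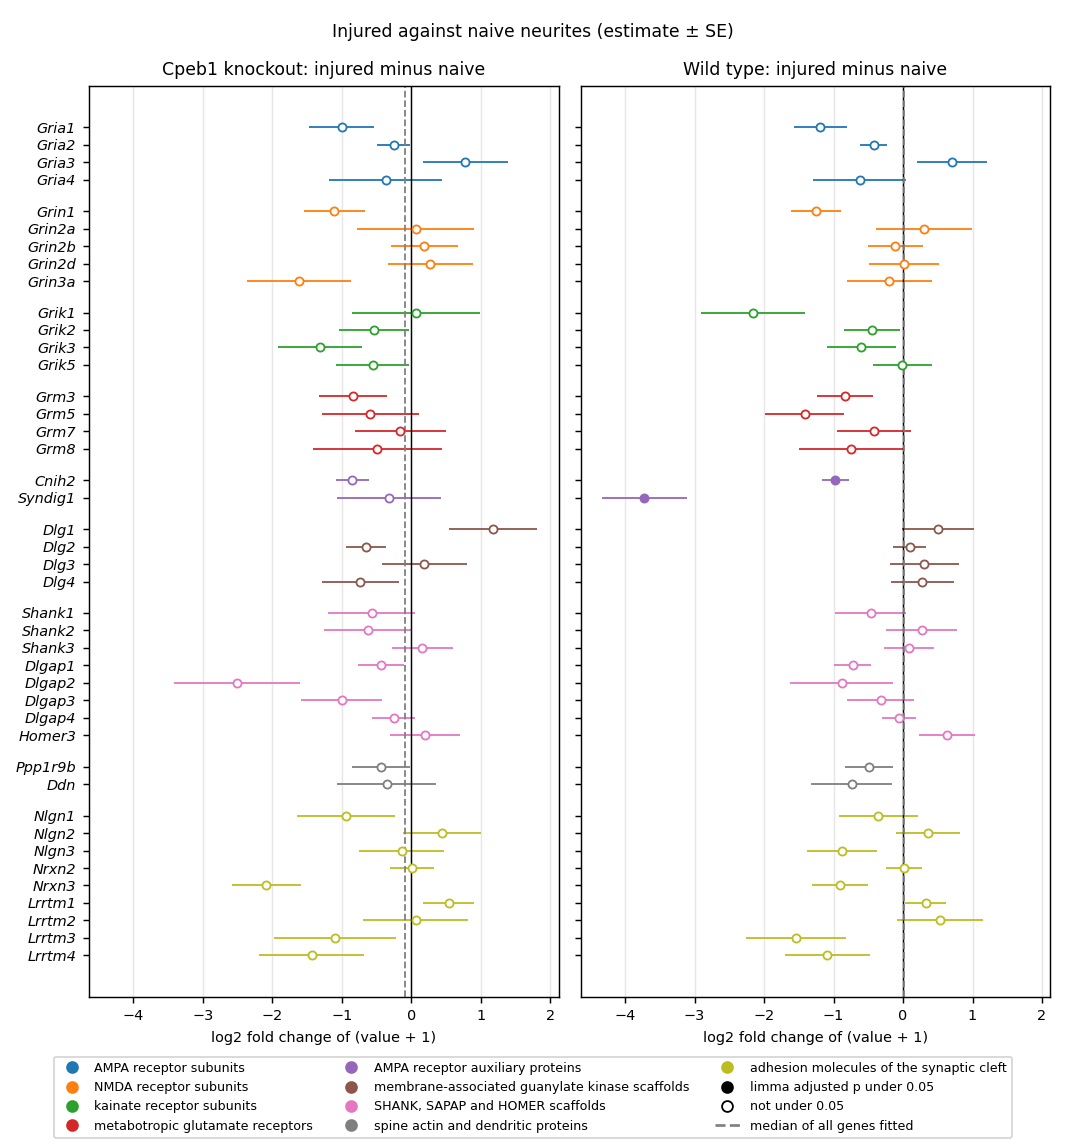
Injured minus naive difference of each gene in log2(value + 1), with its SE, in Cpeb1 knockout (left) and wild-type neurites (right), grouped by role. Filled points passed limma's adjusted p under 0.05 (Cnih2 and Syndig1 in wild type), and the dashed line is the median of all fitted genes.

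Among AMPA receptor subunits, Gria1 and Gria2 were lower after injury and Gria3 higher in the estimate. Gria1, whose product carries the activity-regulated pool of AMPA receptors, stood at 10.6 and 7.50 FPKM in injured knockout neurites and 17.8 and 19.997 in naive knockout neurites, and 5.73, 12.6 and 6.78 in injured wild-type neurites and 15.98, 20.5 and 22.1 in naive wild-type neurites. Every injured library lay below every naive library of its genotype. The log2 difference was -1.001 ± 0.47 (SE; limma adjusted p = 0.873) in the knockout and -1.19 ± 0.38 (SE; limma adjusted p = 0.193) in wild type, and -1.10 ± 0.30 (SE; limma adjusted p = 0.161) over both, so it did not pass. Gria2 stood at 113 and 107 FPKM in injured knockout neurites and 128 and 134 in naive knockout neurites, and 119.992, 122 and 82.7 in injured wild-type neurites and 144, 155 and 131 in naive wild-type neurites. Its injured libraries also all lay below the naive ones of the same genotype, by smaller amounts, with log2 differences of -0.26 ± 0.24 (SE; limma adjusted p = 0.977) in the knockout and -0.42 ± 0.19 (SE; limma adjusted p = 0.357) in wild type, the second of which was -0.24 when wild-type injured replicate 3 was left out. Gria3, another pore-forming subunit, stood at 6.05 and 6.41 FPKM in injured knockout neurites and 2.35 and 4.29 in naive knockout neurites, and 14.9, 9.50 and 5.42 in injured wild-type neurites and 4.33, 4.42 and 7.54 in naive wild-type neurites. Its knockout libraries did not overlap and its wild-type libraries did, and the log2 differences of 0.78 ± 0.62 (SE; limma adjusted p = 0.975) in the knockout and 0.71 ± 0.50 (SE; limma adjusted p = 0.578) in wild type did not pass. The wild-type estimate was 0.39 when wild-type injured replicate 1 was left out. Here and below, knockout groups of 2 libraries separate more often than wild-type groups of 3 even where nothing differs. Separation in the knockout beside overlap in wild type is therefore no evidence of a difference between the genotypes. Gria4, a subunit with fast closing, ranged from 1.02 to 13.0 FPKM over the 10 libraries and had injury differences of -0.37 in the knockout and -0.63 in wild type.

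The make-up of the AMPA receptor mRNA pool was compared as the share of each subunit in the sum of Gria1 to Gria4 per library, which cancels a change common to all of them. Gria1 held 7.92% and 5.85% in injured knockout neurites and 11.6% and 11.7% in naive knockout neurites, and 3.93%, 8.01% and 7.06% in injured wild-type neurites and 9.23%, 10.8% and 13.3% in naive wild-type neurites. Gria3 held 4.53% and 5.002% in injured knockout neurites and 1.54% and 2.51% in naive knockout neurites, and 10.2%, 6.03% and 5.65% in injured wild-type neurites and 2.50%, 2.33% and 4.52% in naive wild-type neurites. For both subunits the injured and naive shares did not overlap in either genotype, with Gria1 lower and Gria3 higher after injury. The difference averaged over genotypes was -4.78 percentage points for Gria1 (-4.78 in the knockout and -4.79 in wild type) and 3.46 for Gria3 (2.74 in the knockout and 4.17 in wild type). An exact two-sided permutation test within genotype gave p = 0.0167 for each, the smallest p its 120 arrangements allow, and 0.108 after adjustment over the 13 shares tested, so neither passed. At this floor, even complete separation of these shares alone could not pass after adjustment, so the adjusted p cannot decide here. Gria2 held 77.7% to 86.2% in every library, and its difference of 1.66 percentage points had an exact permutation p of 0.433 (adjusted 0.85) and ran from 0.344 to 2.98 when a library was left out.

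**Figure D3:**
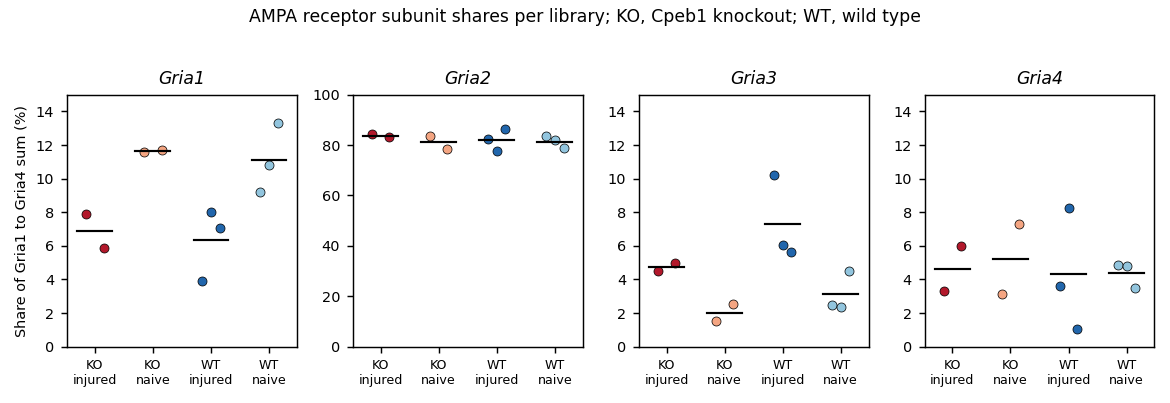
Share of each AMPA receptor subunit in the sum of Gria1 to Gria4 in each library (points, percent) with the group mean (bar). The Gria2 axis runs to 100% and the others to 15%; injured libraries lie below naive ones for Gria1 and above them for Gria3 in both genotypes.

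The obligatory NMDA receptor subunit gene Grin1 was lower in every injured library than in any naive library. It stood at 11.4 and 8.59 FPKM in injured knockout neurites and 19.3 and 26.3 in naive knockout neurites, and 9.65, 17.4 and 7.50 in injured wild-type neurites and 27.6, 25.5 and 28.5 in naive wild-type neurites. The log2 difference was -1.11 ± 0.44 (SE; limma adjusted p = 0.795) in the knockout and -1.25 ± 0.36 (SE; limma adjusted p = 0.153) in wild type, and -1.18 ± 0.28 (SE; limma adjusted p = 0.104) over both. Exons of Grin1 overlap the antisense gene Grin1os over 13.5% of their bases, and Grin1os stood at 0 to 0.599 FPKM. Of the alternative settings, Grin1 passed only when injured wild-type replicate 2 was left out, where limma's adjusted p was 0.0450 in wild type and 0.0344 over both genotypes. Grin2b, the glutamate-binding subunit that prevails in young forebrain, stood at 39.5 and 66.8 FPKM in injured knockout neurites and 44.6 and 45.4 in naive knockout neurites, and 54.8, 65.1 and 24.4 in injured wild-type neurites and 69.5, 28.6 and 55.7 in naive wild-type neurites. Its groups overlapped in both genotypes and its log2 differences were 0.19 ± 0.49 (SE; limma adjusted p = 1.000) in the knockout and -0.11 ± 0.40 (SE; limma adjusted p = 0.937) in wild type. Grin2a, the subunit that replaces Grin2b as synapses mature, and Grin2d, a subunit with slow closing, had differences of 0.07 and 0.27 in the knockout and 0.31 and 0.01 in wild type, none of which passed. Grin3a, which lowers the calcium flow of NMDA receptors, was at 0.054 and 0.534 FPKM in injured knockout neurites and 2.10 and 3.87 FPKM in naive knockout neurites, with a difference of -1.61 ± 0.75 (SE; limma adjusted p = 0.869), against -0.20 in wild type. Grin2a values are uncertain, since 2225 bases of its transcript match the gene model Gm7328 at 99.9% identity.

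All 4 kainate receptor genes were below 0 in wild type after injury, and 3 of 4 in the knockout, none passing the test. Grik5, a high-affinity subunit that needs a partner to form a channel, stood at 6.49 and 6.47 FPKM in injured knockout neurites and 12.4 and 8.01 in naive knockout neurites, and 8.03, 8.09 and 18.7 in injured wild-type neurites and 10.4, 10.7 and 11.4 in naive wild-type neurites. The knockout libraries did not overlap, with the injured ones lower, and the wild-type libraries did, with estimates of -0.55 in the knockout and -0.01 in wild type. Grik2, which forms the main cortical kainate channels, stood at 5.61 and 8.26 FPKM in injured knockout neurites and 8.47 and 12.6 in naive knockout neurites, and 7.99, 6.22 and 5.99 in injured wild-type neurites and 9.59, 9.28 and 9.56 in naive wild-type neurites. Its injured libraries lay below the naive ones in both genotypes, with log2 differences of -0.54 ± 0.50 (SE; limma adjusted p = 0.977) in the knockout and -0.45 ± 0.41 (SE; limma adjusted p = 0.674) in wild type. Grik1, a pore-forming subunit, was listed at 0 in 2 of the 3 injured wild-type libraries and at 2.13 FPKM in the other, against 1.91 to 9.65 FPKM in naive wild-type libraries (-2.16 ± 0.75, SE; limma adjusted p = 0.23). That difference was -4.27 with a pseudocount of 0.1 and -0.96 with 5. In the knockout Grik1 was at 6.21 and 3.105 FPKM in injured and 1.58 and 9.40 FPKM in naive libraries (0.07). Grik3, a low-affinity subunit, was the least abundant gene of the group, with differences of -1.31 in the knockout and -0.60 in wild type.

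The 4 metabotropic receptor genes were below 0 after injury in both genotypes, and none passed. Grm5, the main group I receptor of forebrain dendrites, coupled to calcium release, stood at 13.2 and 7.70 FPKM in injured knockout neurites and 12.3 and 20.05 in naive knockout neurites, and averaged 8.201 ± 7.39 in injured and 19.5 ± 7.13 in naive wild-type neurites (SD, n = 3 each). Groups overlapped in both genotypes, and the log2 difference was -0.59 ± 0.70 (SE; limma adjusted p = 0.984) in the knockout and -1.41 ± 0.57 (SE; limma adjusted p = 0.293) in wild type, where it was -0.84 when wild-type injured replicate 1 was left out. Grm3, a receptor that lowers cyclic AMP, stood at 10.02 and 5.41 FPKM in injured knockout neurites and 12.9 and 15.3 in naive knockout neurites, and 6.09, 8.29 and 6.04 in injured wild-type neurites and 16.4, 10.5 and 12.04 in naive wild-type neurites. Its injured libraries lay below the naive ones in both genotypes, with log2 differences of -0.84 ± 0.49 (SE; limma adjusted p = 0.933) in the knockout and -0.83 ± 0.40 (SE; limma adjusted p = 0.381) in wild type. Grm7 and Grm8, receptors found mainly on axon terminals, had differences of -0.16 and -0.49 in the knockout and -0.42 and -0.74 in wild type.

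The auxiliary proteins of AMPA receptors held the 2 genes that passed. Cnih2 lies on chromosome 19 from base 5092868 to 5098521 (mm10, minus strand). It stood at 176 and 146 FPKM in injured knockout neurites and 327 and 256 in naive knockout neurites, and 112, 157 and 172 in injured wild-type neurites and 279, 283 and 293 in naive wild-type neurites. Every injured library lay well below every naive library. Cnih2 fell by 0.98 ± 0.19 on the log2 scale in wild type (SE; limma adjusted p = 0.0351) and by 0.91 ± 0.15 over both genotypes (limma adjusted p = 0.0159), and its knockout difference of -0.85 ± 0.24 (SE; limma adjusted p = 0.483) did not pass alone. When the library labelled Cpeb1 knockout naive replicate 1 was left out, the difference over both genotypes was -0.83 (limma adjusted p = 0.0980). That call was also lost when Cpeb1 knockout injured replicate 2 was left out (limma adjusted p = 0.122), and when any of the naive wild-type replicates 1, 2 and 3 was (limma adjusted p = 0.0571, 0.0574 and 0.0528).

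Syndig1, a membrane protein that regulates the number of AMPA receptors at developing synapses, is encoded on chromosome 2 from base 149829211 to 150004392 (mm10, plus strand). Its mRNA stood at 25.4 and 9.61 FPKM in injured knockout neurites and 13.1 and 29.7 in naive knockout neurites, and 2.20, 0.144 and 0 in injured wild-type neurites and 33.4, 19.1 and 11.2 in naive wild-type neurites. The 3 injured wild-type libraries were near 0, below every other library, while injured and naive knockout libraries overlapped. Syndig1 fell by 3.72 ± 0.61 on the log2 scale in wild type (SE; limma adjusted p = 0.0141), and its knockout difference was -0.32 ± 0.75 (SE; limma adjusted p = 1.000). The size of the wild-type difference depends on the pseudocount, at -5.66 with 0.1 and -2.11 with 5, and it passed with both. Without wild-type injured replicate 3 the wild-type difference was -3.41 (limma adjusted p = 0.0381). Over 21 alternative settings Syndig1 passed in wild type in 18 and Cnih2 in 14. Leaving out naive wild-type replicate 1 or 2 ended the wild-type call of Syndig1 (limma adjusted p = 0.0964 and 0.0793). Leaving out any of the naive wild-type replicates 1, 2 and 3 ended that of Cnih2 (limma adjusted p = 0.138, 0.140 and 0.134), and so did leaving out injured wild-type replicate 1 (0.0951). The difference between the genotypes' injury effects on Syndig1 (knockout minus wild type) was 3.41 ± 0.97 (SE; limma adjusted p = 0.745) with an unadjusted p of 0.00378, and limma called 0 of 15712 genes (0%) in that comparison, with 979 (6.23%) under an unadjusted p of 0.05. Exons of Syndig1 overlap those of C530025M09Rik over 11.8% of their bases, and that gene was at most 0.945 FPKM in any library.

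**Figure D4:**
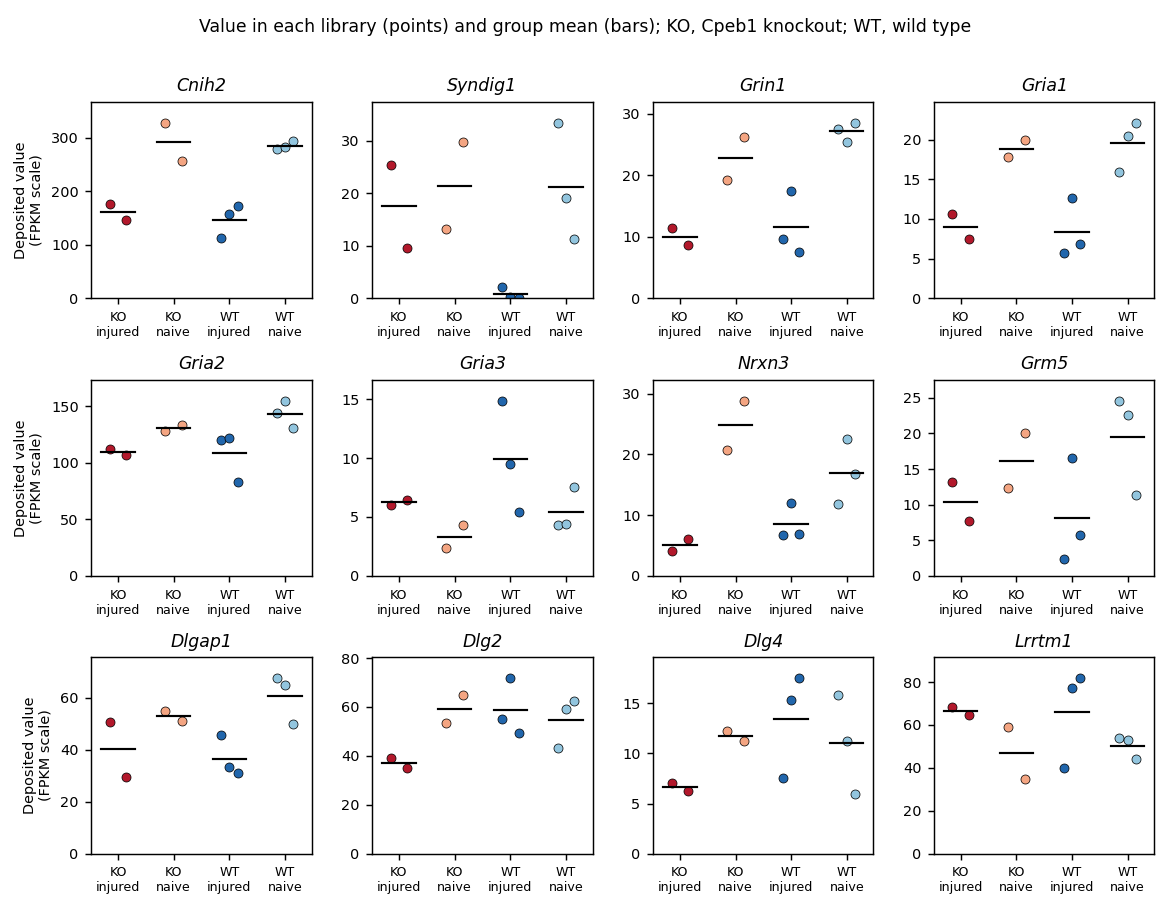
Value of 12 genes in each library (points, FPKM scale, axes from 0) with the group mean (bar), for injured and naive Cpeb1 knockout (KO) and wild-type (WT) neurites. Cnih2, Grin1, Gria1, Gria2 and Dlgap1 are lower in every injured library than in the naive libraries of the same genotype, and Syndig1 is near 0 in injured wild-type neurites alone.

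The DLG scaffold genes had estimates on both sides of 0. All 4 were above 0 after injury in wild type, with a median of 0.29, and 2 of 4 in the knockout, and none passed. Dlg2, a scaffold that binds NMDA receptors and potassium channels, stood at 39.2 and 35.1 FPKM in injured knockout neurites and 53.3 and 65.1 in naive knockout neurites, and 55.2, 71.7 and 49.3 in injured wild-type neurites and 43.1, 59.2 and 62.4 in naive wild-type neurites. The injured knockout libraries lay below all others, with a log2 difference of -0.65 ± 0.29 (SE; limma adjusted p = 0.861) in the knockout against 0.10 ± 0.24 (SE; limma adjusted p = 0.901) in wild type. Dlg4, the core scaffold PSD-95 of the postsynaptic density, stood at 7.05 and 6.30 FPKM in injured knockout neurites and 12.2 and 11.2 in naive knockout neurites, and 7.53, 15.4 and 17.5 in injured wild-type neurites and 15.8, 11.3 and 5.99 in naive wild-type neurites. Its knockout libraries did not overlap and its wild-type libraries did, with log2 differences of -0.73 ± 0.55 (SE; limma adjusted p = 0.975) in the knockout and 0.28 ± 0.45 (SE; limma adjusted p = 0.83) in wild type. Dlg1, which traffics AMPA receptors, had differences of 1.18 in the knockout and 0.50 in wild type, and Dlg3, the scaffold of immature synapses, of 0.19 in the knockout and 0.31 in wild type.

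Of the 8 SHANK, SAPAP and HOMER genes, 6 were below 0 after injury in the knockout and 5 in wild type, with medians of -0.50 in the knockout and -0.19 in wild type, and none passed. Dlgap1, a SAPAP scaffold, stood at 50.7 and 29.5 FPKM in injured knockout neurites and 54.8 and 51.03 in naive knockout neurites, and 45.6, 33.4 and 30.9 in injured wild-type neurites and 67.5, 64.9 and 49.8 in naive wild-type neurites. Its injured libraries lay below the naive ones in both genotypes, with log2 differences of -0.44 ± 0.33 (SE; limma adjusted p = 0.975) in the knockout and -0.72 ± 0.27 (SE; limma adjusted p = 0.259) in wild type. Dlgap4 stood at 152 and 142 FPKM in injured knockout neurites and 222 and 139 in naive knockout neurites, and 179.7, 177 and 125 in injured wild-type neurites and 173, 121 and 214 in naive wild-type neurites. Groups overlapped in both genotypes (-0.26 in the knockout and -0.05 in wild type). Homer3, a dimerizing member of the HOMER adaptors, was the only one of the 42 genes with every injured wild-type library above every naive one, a pattern that 9.78% of all genes had. It stood at 20.1 and 11.3 FPKM in injured knockout neurites and 13.6 and 12.5 in naive knockout neurites, and 12.8, 14.7 and 33.6 in injured wild-type neurites and 12.5, 11.1 and 11.3 in naive wild-type neurites. The log2 difference was 0.20 ± 0.50 (SE; limma adjusted p = 1.000) in the knockout and 0.63 ± 0.41 (SE; limma adjusted p = 0.528) in wild type. Without wild-type injured replicate 3 that difference was 0.22. Exons of Homer3 overlap those of Ddx49 over 25.4% of their bases, and Ddx49 stood at 12.3 to 40.8 FPKM, so reads of both cannot be told apart there.

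Dlgap2, another SAPAP, had the lowest estimate in the knockout, at 0 and 0.857 FPKM in injured and 4.07 and 10.8 FPKM in naive knockout libraries (-2.50 ± 0.90, SE; limma adjusted p = 0.753), against -0.88 in wild type. The knockout difference was -4.45 with a pseudocount of 0.1 and -1.15 with 5. Dlgap3, a SAPAP prominent in striatum, had differences of -1.004 in the knockout and -0.32 in wild type. The SHANK genes encode the deep scaffold of the density. Injury differences in the knockout were -0.57 for Shank1, -0.62 for Shank2 and 0.16 for Shank3. In wild type they were -0.46 for Shank1, 0.27 for Shank2 and 0.09 for Shank3.

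Both genes of spine and dendrite proteins were below 0 in both genotypes. Ppp1r9b (spinophilin), which brings a phosphatase to spine actin, stood at 9.86 and 11.6 FPKM in injured knockout neurites and 18.2 and 12.1 in naive knockout neurites, and 13.2, 10.8 and 10.8 in injured wild-type neurites and 15.2, 15.5 and 19.5 in naive wild-type neurites. Injured libraries lay below naive ones in both genotypes, with log2 differences of -0.44 ± 0.42 (SE; limma adjusted p = 0.977) in the knockout and -0.49 ± 0.34 (SE; limma adjusted p = 0.569) in wild type. Ddn (dendrin), whose mRNA is known from dendrites, stood at 5.60 and 2.97 FPKM in injured knockout neurites and 5.09 and 6.01 in naive knockout neurites, and 2.84, 2.54 and 1.06 in injured wild-type neurites and 6.46, 1.59 and 5.69 in naive wild-type neurites. Its groups overlapped in both genotypes (-0.35 in the knockout and -0.74 in wild type).

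Of the 9 adhesion genes, 5 were below 0 after injury in each genotype, and none passed. Lrrtm1, an organizer of excitatory synapses, was the most abundant and stood at 68.2 and 64.6 FPKM in injured knockout neurites and 59.05 and 34.9 in naive knockout neurites, and 40.05, 77.02 and 81.7 in injured wild-type neurites and 53.7, 52.9 and 44.3 in naive wild-type neurites. Injured knockout libraries lay above the naive ones, wild-type libraries overlapped, and the log2 differences were 0.54 ± 0.36 (SE; limma adjusted p = 0.957) in the knockout and 0.33 ± 0.30 (SE; limma adjusted p = 0.67) in wild type. Leaving out a library moved the wild-type estimate, to 0.15 in the case of injured replicate 3 and to 0.65 in that of injured replicate 1. Nrxn2, a neurexin of the axonal side, stood at 37.5 and 26.8 FPKM in injured knockout neurites and 31.3 and 31.6 in naive knockout neurites, and 35.5, 38.1 and 27.4 in injured wild-type neurites and 33.2, 29.4 and 36.9 in naive wild-type neurites. Its groups overlapped, and its differences of 0.01 ± 0.32 in the knockout and 0.01 ± 0.26 in wild type (SE) were the nearest to 0 over both genotypes. Nrxn3, another neurexin, had the smallest p of the 42 genes in the knockout and is given in full after its values were seen. It stood at 4.05 and 6.11 FPKM in injured knockout neurites and 20.8 and 28.9 in naive knockout neurites, and 6.80, 11.9 and 6.89 in injured wild-type neurites and 11.8, 22.5 and 16.7 in naive wild-type neurites. The knockout libraries were far apart and the wild-type libraries overlapped by a narrow margin, with log2 differences of -2.09 ± 0.49 (SE; limma adjusted p = 0.348) in the knockout, -0.91 ± 0.40 (SE; limma adjusted p = 0.336) in wild type and -1.50 ± 0.32 (SE; limma adjusted p = 0.0614) over both. Over both genotypes Nrxn3 passed in 3 alternative settings, with a minimum value of 5 (limma adjusted p = 0.0420), with library weights (0.0496) and when injured wild-type replicate 2 was left out (0.0369).

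Lrrtm3 and Lrrtm4, which also bind heparan sulphate proteoglycans, had differences of -1.10 and -1.44 in the knockout and -1.54 and -1.09 in wild type. Lrrtm4 shares 25.1% of its exon bases with the gene model Gm4409, which was listed at 0 in every library. Lrrtm2, a neurexin ligand of excitatory synapses, had differences of 0.07 in the knockout and 0.53 in wild type. Among neuroligins, Nlgn1 acts at excitatory synapses, Nlgn2 at inhibitory synapses and Nlgn3 at both kinds. Their differences in the knockout were -0.94 for Nlgn1, 0.44 for Nlgn2 and -0.14 for Nlgn3, and in wild type -0.36 for Nlgn1, 0.37 for Nlgn2 and -0.88 for Nlgn3. The value of Nlgn3 is uncertain, because 41.2% of its exon bases are shared with the gene model Gm21986. That model stood at 1.29 and 1.01 FPKM in injured wild-type replicates 1 and 3 and at most 0.037 FPKM in any other library.

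Markers of other cells and of RNA source moved with injury as well. All 12 interneuron markers were below 0 in both genotypes. Their summed level was 72.9 and 129 FPKM in injured knockout neurites and 517 and 894 FPKM in naive knockout neurites, and 59.6 to 101 FPKM in injured wild-type neurites and 472 to 746 FPKM in naive wild-type neurites. Limma called Sst lower in the knockout, and Sst, Gad1, Dlx1, Dlx5 and Npy lower in wild type. The 10 projection neuron markers summed to 375 and 430 FPKM in injured knockout neurites and 340.1 and 367 FPKM in naive knockout neurites, and 267 to 366 FPKM in injured wild-type neurites and 270.3 to 314 FPKM in naive wild-type neurites, and none was called in either genotype. By sign, 5 of these 10 were below 0 after injury in the knockout (median log2 difference 0.01) and 7 in wild type (median -0.37). The 10 astrocyte markers summed to 730.3 and 831 FPKM in injured knockout neurites and 501 and 575 FPKM in naive knockout neurites, and 647 to 1487 FPKM in injured wild-type neurites and 403 to 553 FPKM in naive wild-type neurites, with Sox9 called higher in wild type. The 7 transcripts of the cell body and nucleus summed to 1816 and 3217 FPKM in injured knockout neurites and 2277 and 3167 FPKM in naive knockout neurites, and 6512 to 7825 FPKM in injured wild-type neurites and 2703 to 4123 FPKM in naive wild-type neurites. Rn7sk and Malat1 of these were called higher in wild type, but 4 of the 7 were below 0 after injury in each genotype. Their median log2 difference was -0.32 in the knockout and -0.05 in wild type, so the wild-type sums do not describe all 7. The 8 markers of radial glia and progenitors summed to 3787 and 3827 FPKM in injured knockout neurites and 3139 and 4225 FPKM in naive knockout neurites, and 2563 to 4792 FPKM in injured wild-type neurites and 2279 to 2806 FPKM in naive wild-type neurites, with Vim called higher in wild type. The 8 oligodendrocyte lineage markers, none of them called, summed to 237 and 239.9 FPKM in injured knockout neurites and 114 and 207 FPKM in naive knockout neurites, and 162 to 405 FPKM in injured wild-type neurites and 158 to 176 FPKM in naive wild-type neurites. Of the 7 that were fitted, 4 were below 0 after injury in the knockout and 3 in wild type. The 4 endothelial markers summed to at most 5.16 FPKM in any library, and up to 2 of them were at 0 in all libraries of a group. Of the 8 microglial markers, 2 to 5 were at 0 in all libraries of a group, and their sum was at most 18.7 FPKM. In the other lists, the markers at 0 in all libraries of at least 1 group were S100b of astrocytes, in injured wild-type neurites, and Mog of the oligodendrocyte lineage, in injured knockout neurites. The part of these markers in the lower levels of the receptor and scaffold genes was not tested.

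Cpeb1 knockout against wild type changed none of the 42 genes past the threshold. In naive neurites limma called 0 of the 42 (0.146% of all genes), none was under an unadjusted p of 0.05 (3.76% of all genes), and the median log2 difference was -0.04 (0.06 over all genes). The estimates ran from -1.06 ± 0.84 for Grm8 to 0.67 ± 0.56 for Grik3 (SE). In injured neurites limma called 0 of the 42 (0.261% of all genes), and 3 were under an unadjusted p of 0.05 (10.5% of all genes), with a median of -0.09 (-0.05 over all genes). The naive median was 0.01 without the library labelled Cpeb1 knockout naive replicate 1, and leaving out a library gave -0.09 to 0.01. The injured median was 0.004 with quantile normalization, and leaving out a library gave -0.21 to -0.02. The lowest, -0.21, came without Cpeb1 knockout injured replicate 1, where the median of all genes was -0.04. The 3 genes under an unadjusted p of 0.05 in injured neurites were Syndig1, with 3.44 ± 0.68 (SE; limma adjusted p = 0.0708), Grik1, with 1.90 ± 0.84 (SE; limma adjusted p = 0.454), and Dlg2, with -0.63 ± 0.27 (SE; limma adjusted p = 0.437). These differences use the injured libraries given above for each gene, so they are not independent of the injury comparisons. The nuclear transcript Malat1 was called lower in injured knockout than in injured wild-type neurites (-1.79, limma adjusted p = 0.02002), and its part in these differences was not tested. Every injured knockout library lay above every injured wild-type library for Syndig1, Grik1 and Ddn (9.72% of all genes), and below for Dlg2, Dlg4, Dlgap3, Grik5, Nrxn3, Shank1 and Shank3 (12.2% of all genes). Syndig1 passed in injured neurites when injured wild-type replicate 1 was left out (limma adjusted p = 0.0431) and when genes needed a value of at least 5 (0.0464), and its limma adjusted p ranged from 0.0431 to 0.474 over 21 settings.

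**Figure D5:**
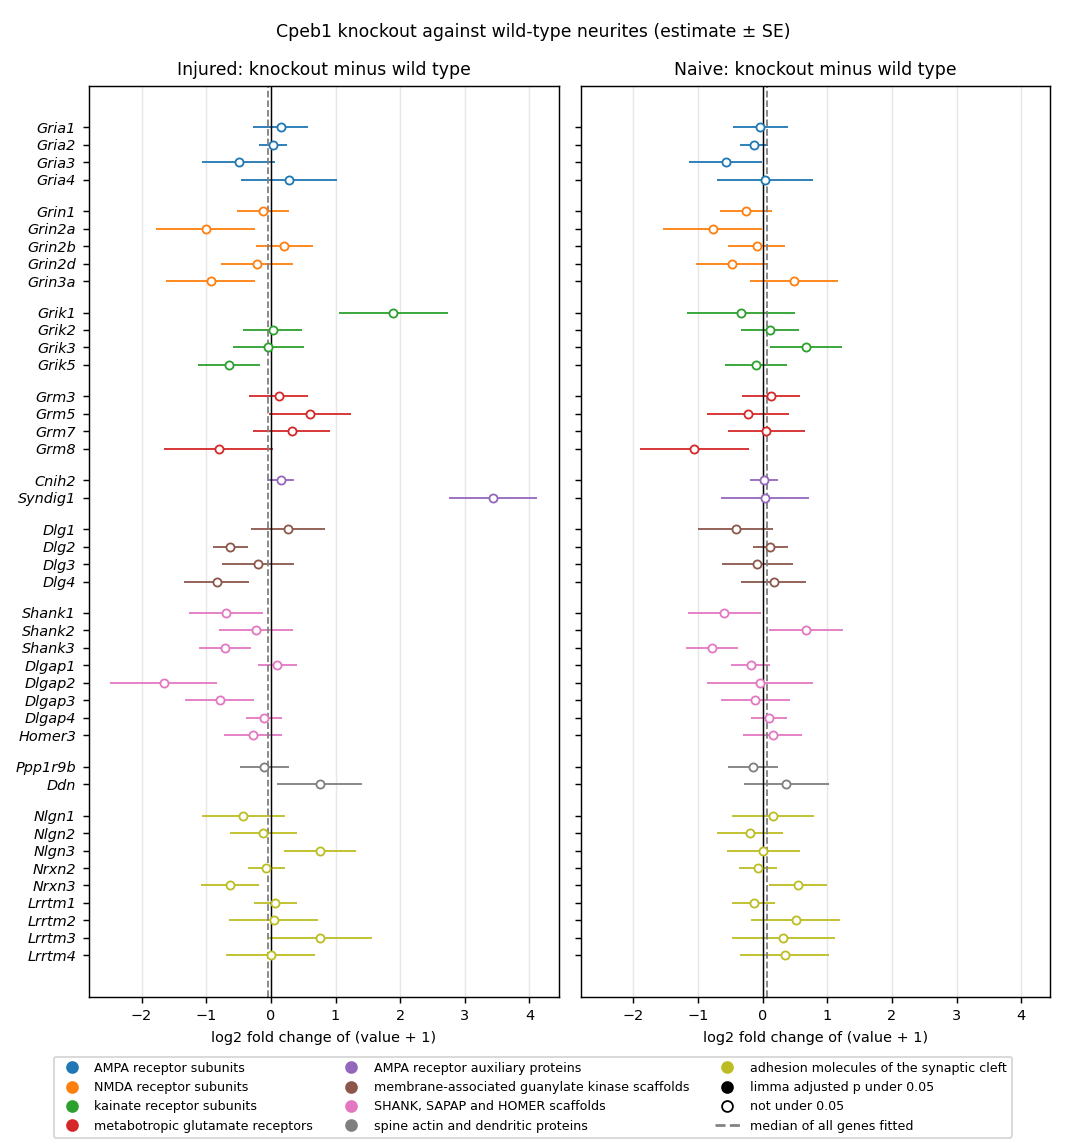
Cpeb1 knockout minus wild-type difference of each gene in log2(value + 1), with its SE, in injured (left) and naive neurites (right), grouped by role. No point is filled, since none passed limma's adjusted p under 0.05, and Syndig1 in injured neurites lies farthest from 0, at 3.44.

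Shank3, mutated in some forms of autism, had lower values in knockout neurites of both states. It stood at 9.16 and 7.60 FPKM in injured knockout neurites against 12.1, 17.0 and 14.1 FPKM in injured wild-type neurites, and at 7.19 and 7.55 FPKM in naive knockout neurites against 14.8, 14.5 and 11.0 FPKM in naive wild-type neurites. The difference averaged over both states was -0.74 ± 0.28 (SE; limma adjusted p = 0.561). Shank1 stood at 1.172 and 2.27 FPKM in injured knockout neurites and 2.31, 3.78 and 4.07 in injured wild-type neurites, and at 3.34 and 2.59 FPKM in naive knockout neurites and 4.97, 3.96 and 6.09 in naive wild-type neurites, with an averaged difference of -0.64 ± 0.40 (SE; limma adjusted p = 0.733). Shank1 and Shank3, described here after their values were seen, were those of the 42 genes whose knockout libraries lay below the wild-type ones in both states, as in 1.37% of all genes, and none of the 42 showed the opposite in both states, as 1.79% of all genes did. Genes with and without a TTTTAT or TTTTAAT match were set side by side, with no test. In injured neurites the median knockout minus wild-type difference was 0.01 for the 28 genes with a match and -0.11 for the 14 without, against -0.06 and 0.00 over all genes with a 3′ UTR. In naive neurites it was -0.01 with a match and -0.09 without, against 0.06 and 0.11 over all genes.

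Related genes outside the 42 showed few calls. Of 9 other glutamate receptor subunit genes, 7 passed the filter on low values, none was called in any comparison, and Grm6 and Grin3b did not pass the filter. After injury 5 of these 7 were below 0 in the knockout (median log2 difference -0.23) and 3 in wild type (median 0.18). The wild-type median thus had the opposite sign to that of the 42 genes. None of 18 other receptor auxiliary genes and none of 31 other synaptic adhesion genes was called in either genotype after injury, with medians of -0.44 and -0.28 in the knockout and -0.36 and -0.33 in wild type. Of 35 other postsynaptic scaffold and signalling genes, Arc rose after injury in wild type and Camk2a fell over both genotypes. Camk2a, the alpha subunit of the calcium-dependent kinase of spines, averaged 26.7 ± 4.17 FPKM in injured knockout neurites and 89.6 ± 8.00 FPKM in naive knockout neurites (SD, n = 2 each), and 26.7 ± 7.34 FPKM in injured wild-type neurites and 72.3 ± 31.8 FPKM in naive wild-type neurites (SD, n = 3 each). Its injured and naive libraries did not overlap in either genotype, and its log2 difference was -1.71 ± 0.38 (SE; limma adjusted p = 0.252) in the knockout, -1.35 ± 0.31 (SE; limma adjusted p = 0.061) in wild type and -1.53 ± 0.24 (SE; limma adjusted p = 0.0118) over both. Arc, an activity-induced gene that promotes AMPA receptor removal, stood at 11.3 to 17.3 FPKM in injured and 0.273 to 1.505 FPKM in naive wild-type neurites (3.09 ± 0.60, SE; limma adjusted p = 0.0328), and at 0 and 2.58 FPKM in injured and 3.49 and 4.04 FPKM in naive knockout neurites (-1.33 ± 0.73, SE; limma adjusted p = 0.933). The difference between the genotypes' injury effects on Arc was -4.42 ± 0.94 (SE; limma adjusted p = 0.529).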

How the data were processed

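Neurite RNA was sequenced by Smart-seq2, per the labels' protocols, from 1 ng of RNA primed on poly(A) tails, a method that does not keep the strand. The submitters' processing notes name STAR 2.4.2a, RSEM 1.2.21 and mm10. The deposited values were taken as FPKM, each library divided by a factor of 0.811 to 1.11, since at least 99.9759% of values lay within 0.001 of whole multiples of 0.01 over that factor. TPM without mitochondrial genes cannot be told from FPKM by these values. Depth was estimated from the step of the values of short genes, and counting error was not computed, since no counts were used.

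GENCODE M21 held 44548 of the gene IDs and lacked 647. The 15712 genes that reached 1 in 2 or more libraries were fitted with limma 3.58.1 (R 4.3.3) on log2(value + 1), as 4 group means over 10 libraries, with a mean-variance trend and Benjamini-Hochberg adjustment over all of them. Fold changes on this scale understate changes of low genes. Residual and prior degrees of freedom were 6 and 6.80. The fit was tested on simulated data. Near-identical copies were sought with blastn 2.17.0 (95% identity over at least 150 bases); Dlg4 also matched 8 genes over such short stretches. Python 3.11.15 served for tables and figures.

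The genes and lists were chosen with earlier results of these data known. Values per library are given for genes called in any comparison, the 3 members per direction with the smallest p after injury in wild type, Grin1, Gria2 and Dlg4, and the 2 highest genes of each role in naive wild-type neurites. Others given in full were chosen after their values were seen.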

Additional observations from a re-analysis of the deposited data

Results flagged for a closer look

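Arc, which is outside the 42 genes, differed from its naive mean with opposite signs in the 2 genotypes in every injured library, which singled it out. Relative to the naive mean of the same genotype on the log2 scale, Arc lay at -2.25 and -0.41 in injured knockout libraries and at 2.81 to 3.38 in injured wild-type libraries. The difference between the genotypes' effects (knockout minus wild type) was -4.42 ± 0.94 (SE), with a limma adjusted p of 0.529, so it did not pass.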

How the results depend on the processing

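The fit was repeated under 21 alternative settings, 10 of which left out a library each. Among single genes, 714 values kept their direction and their side of the threshold, 17 lost the call, 7 gained one and none turned. The number of the 42 genes called after injury in wild type was 2, with 0 without the filter on low values, 1 without the mean-variance trend and 1 with only the groups compared, and 0 to 3 when a library was left out. Over both genotypes it was 1, with 0 without the filter, 0 without the trend, 2 at a minimum value of 5, 2 with library weights and 0 to 3 when a library was left out. For genotype in injured neurites it was 0, with 1 at a minimum value of 5 and 0 to 1 when a library was left out. With a pseudocount of 5 the median injury difference was -0.26 in the knockout, -0.24 in wild type and -0.29 over both. Leaving out a library gave -0.54 to -0.29 in the knockout, -0.47 to -0.22 in wild type, and -0.11 to 0.12 for the interaction (0.06 with all). The cause of these shifts was not tested. Quantile normalization put the median interaction of all genes at 0.02, against -0.13 in the fit reported, and that of the 42 genes at 0.22.

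Leaving out a library gave differences in subunit share, in percentage points over both genotypes, of -1.38 to 0.713 for Gria4, -0.718 to 4.98 for Grin2a, -6.91 to 0.149 for Grin2b, -1.08 to 1.60 for Grin2c and -0.437 to 0.989 for Grin2d, so these turned. Those of Grik1 (-10.9 to 0.215) and Grik5 (-3.29 to 5.35) turned as well. Grik3 (-4.18 to -2.59) reached an unadjusted exact permutation p of 0.0333 without wild-type injured replicate 1, and Grik4 (3.92 to 17.5) of 0.0167 without Cpeb1 knockout injured replicate 1. Gria1 (-5.30 to -4.18) and Gria3 (2.73 to 3.87) kept their direction, as did Gria2 and Grik2.

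With the replicate number as a block the calls were the same 2 genes in wild type (Cnih2 and Syndig1), and Cnih2 over both genotypes. Residuals of libraries of the same number and genotype correlated at -0.01 to 0.06 (5 pairs), so the numbers were not taken to pair them.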

Other observations

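The genes differed in how far libraries of 1 group spread. The median residual SD of the 42 genes on the log2 scale was 0.41, against 0.63 for fitted genes of the same level, and it ran from 0.20 to 1.04 among the 42.

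Of the mRNAs known from dendrites that are not among the 42 genes, Map2, which encodes a microtubule-associated protein of dendrites, fell over both genotypes (-0.91 ± 0.15, SE; limma adjusted p = 0.013), at 115 and 179 FPKM in injured and 262 and 314 FPKM in naive knockout libraries, and at 170 to 201 FPKM in injured and 311 to 344 FPKM in naive wild-type libraries.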
